A study of Chlamydomonas reinhardtii with 2 samples.

Results

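The 6 genes described here, GDPD1, GDPD2, GDPD4, SQD1, SQD3 and DGD1, code for enzymes that take phospholipids apart or build the phosphorus-free lipids of plastid membranes. They were picked by gene symbol from a table of 17147 gene loci of Chlamydomonas reinhardtii, a unicellular green alga, and each symbol matched 1 locus. The alga was the wild-type strain CC-1690, also called 21gr, grown on acetate medium under constant illumination (70 µmol per square metre and second), with shaking at 200 rpm and a temperature of 25 °C. One culture spent 24 h with 1.1 mM phosphate (replete). The other was washed in phosphate-free medium and spent 24 h at 0 mM phosphate (deprived). Each culture gave 1 RNA sequencing library, so no value below has a replicate error, no test of the conditions was possible, and every difference is one between 2 libraries.

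Phospholipids hold a large part of a cell's bound phosphate. When phosphate runs short, plants and algae are known to degrade phospholipids and to put sulfolipid, a negatively charged glycolipid with a sulfonate head group, and galactolipids in their place. Glycerophosphodiester phosphodiesterases (GDPD) split the glycerophosphodiesters left after the fatty acids have been removed from a phospholipid, giving glycerol-3-phosphate and a free alcohol. SQD1, UDP-sulfoquinovose synthase, makes the head group donor of sulfolipid from UDP-glucose and sulfite, and a sulfolipid synthase such as SQD3 moves that head group onto diacylglycerol. DGD1 adds a further galactose to monogalactosyldiacylglycerol, which yields digalactosyldiacylglycerol.

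Expression is given as RPKM, reads scaled to transcript length and to library depth, so that levels are per length. Levels of different genes can be compared only as far as the lengths used hold, and the annotation behind them is not stated. All 6 genes had a higher RPKM in the deprived library, but by very different amounts. So did 62% of the 13855 genes whose RPKM averaged at least 1 over both libraries. Below, all genes means these 13855 and not the 17147 loci. GDPD1, GDPD2 and SQD3 went from a replete value that has the pattern of a gene without reads to between 7.41 and 18.01 RPKM, while SQD1, GDPD4 and DGD1 were already measured in the replete library and differed by 1.96, 2.04 and 1.35 times. RPKM is a share of a library, so more transcript of a gene and less of other transcripts cannot be told apart here.

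**Figure D1:**
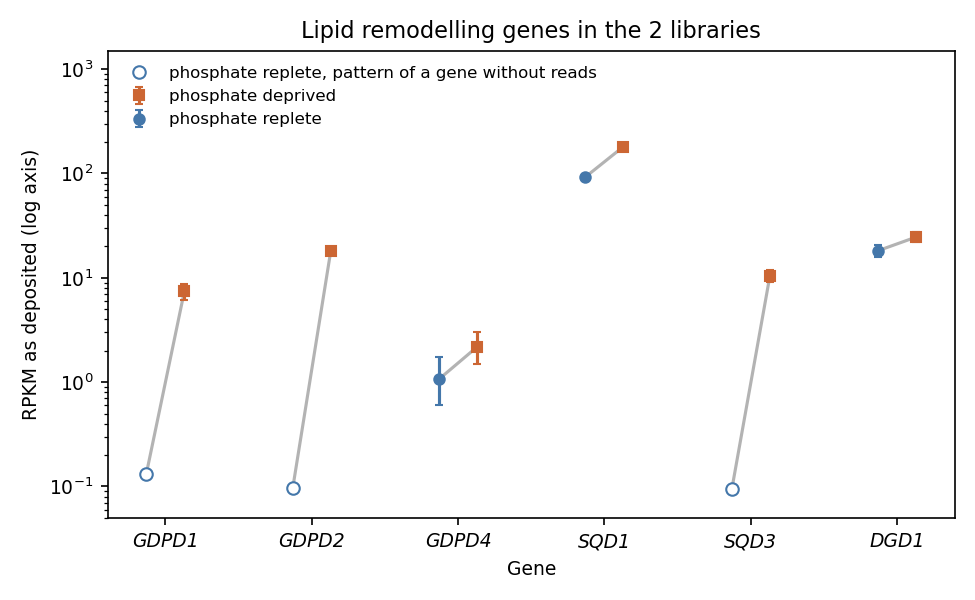
RPKM of the 6 genes in the replete library (circles) and the deprived library (squares) on a log axis, with 1 library per condition. Bars are 95% exact Poisson intervals of the reads and cover counting error only. For SQD1, GDPD4 and DGD1 they rest on an assumed length of 1000 bases. Open circles mark replete values with the pattern of a gene without reads. GDPD1, GDPD2 and SQD3 start at 0.0941 to 0.132 RPKM and end at 7.41, 18.01 and 10.4 RPKM, whereas SQD1 and DGD1 are high in both libraries.

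The deposited table holds no 0, and 1246 loci share a single deprived-to-replete ratio of 0.870. That is the pattern of a constant count given to each gene ahead of scaling, an inference from the values. Dividing the highest replete value of those loci, 160.7 RPKM, by the replete values of GDPD1, GDPD2 and SQD3 gave whole numbers (tolerance 0.02), read here as lengths of 1220, 1680 and 1708 bases. Under this reading the 3 genes had 0 reads in the replete library, and about 127, 431 and 252 reads in the deprived library. The same reading takes LSM5, the locus with that highest value, as 1 base long. Some of the 1246 loci averaged at least 1 RPKM, such as Cre01.g046450 (3.03 and 2.64 RPKM). The 13855 genes thus include loci without reads in either library under this reading. Reads carry no molecular identifiers, so intervals and limits below cover counting error only.

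Of the enzymes of phospholipid breakdown, GDPD2 (Cre16.g683900) had the largest difference. It was listed at 0.0957 RPKM with phosphate and at 18.01 RPKM without, with a counting interval of 16.4 to 19.8 RPKM for the latter. Against a limit of 3 counts in the replete library (0.143 RPKM) it was at least 125-fold higher under deprivation. The limit is 114-fold at the lower end of the counting interval, and 62.5-fold if a count of 1 was added once per library and not once in each of 2 runs. GDPD1 (Cre16.g683850), the next locus along chromosome 16, was listed at 0.132 RPKM with phosphate and at 7.41 RPKM without (interval 6.18 to 8.78 RPKM). It was at least 36.9-fold higher against the same limit of 3 counts, which is 0.198 RPKM at its length, with 30.7-fold at the lower end of the interval and 18.5-fold under the other reading of the added count. Both genes thus had no reads, under the reading above, in one library and lay above the middle of all genes in the other. In the deprived library 75.1% of the 13855 genes lay below GDPD2 and 53.7% lay below GDPD1. Per length, GDPD2 was 2.43 times as abundant as its neighbour there, with an exact counting interval of 2.02 to 3.03. How reads that match both genes were counted is not stated in the labels, so the split between this pair is uncertain to that extent.

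GDPD4 (Cre03.g183650), a further gene of the same family, had 1.07 RPKM with phosphate and 2.18 RPKM without. At an assumed length of 1000 bases these values stand for about 11 and 29 reads, and the exact interval of the ratio of reads, scaled for depth and without the added counts, was 1.11 to 5.09. Its difference is therefore poorly resolved by counting alone. In the deprived library it was the least abundant of the 6 genes, above 16.3% of the 13855 genes averaging at least 1 RPKM.

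Among the genes of sulfolipid synthesis, SQD3 (Cre16.g689150) stood out by its replete value. The authors' table describes it as a sulfolipid synthase without expressed sequence tags and asks whether it is a pseudogene. It was listed at 0.0941 RPKM with phosphate, where 3 counts would be 0.141 RPKM, and at 10.4 RPKM without (interval 9.17 to 11.8 RPKM), which makes it at least 73.1-fold higher. That limit is 64.4-fold at the lower end of the interval and 36.5-fold with a count of 1 added once per library. About 252 reads were thus assigned to that locus in the deprived library, and 63.2% of all genes lay below it. SQD1 (Cre16.g656400), the enzyme of the preceding step, was the most abundant of the 6 genes in both libraries, at 92.5 RPKM with phosphate and 181 RPKM without. Its log2 fold, computed from RPKM + 1 here and below, was 0.96, just short of 2-fold. The exact interval of its ratio at an assumed length of 1000 bases was 1.83 to 2.10, so counting error alone does not place it on one side of 2-fold. SQD1 lay above 94.3% of all genes with phosphate and above 96.8% without.

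DGD1 (Cre13.g583600), the galactolipid galactosyltransferase, came next after SQD1 in abundance in both libraries, at 18.2 RPKM with phosphate and 24.6 RPKM without. Its log2 fold of 0.41 was the smallest of the 6, against a median of 0.14 over all genes, and its ratio had a counting interval of 1.14 to 1.61 at a length of 1000 bases. That interval holds for the unscaled values. With both libraries scaled to the same median, the log2 fold was 0.21. DGD1 lay above 77.3% of all genes with phosphate and above 80.6% without.

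The order of the 6 levels changed between the libraries. In the replete library it ran from SQD1 over DGD1 and GDPD4 to the 3 genes without reads, which cannot be ordered. In the deprived library it ran from SQD1 over DGD1, GDPD2, SQD3 and GDPD1 to GDPD4. No 2 neighbours in this order had overlapping counting intervals there, with DGD1 at 22.1 to 27.3 RPKM and GDPD4 at 1.498 to 3.05 RPKM. The intervals of SQD1, DGD1 and GDPD4 rest on the assumed length of 1000 bases. The 6 genes summed to 112 RPKM with phosphate and 244 RPKM without, and SQD1 made up 82.5% and 74.3% of these sums.

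**Figure D2:**
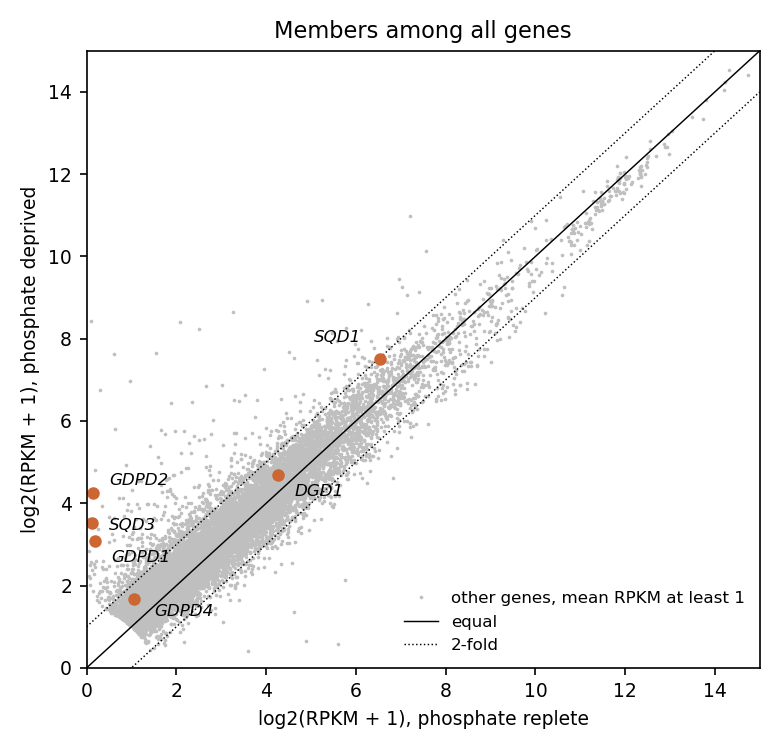
log2(RPKM + 1) in the replete (x axis) and the deprived library (y axis) for the 13855 genes that passed the filter (grey) and the 6 genes described here (orange). The solid line marks equal values and the dotted lines 2-fold. GDPD1, GDPD2 and SQD3 lie at the left edge, SQD1 next to the upper dotted line, and GDPD4 and DGD1 inside the band.

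All 6 genes passed the filter of a mean of 1 RPKM, but GDPD1, GDPD2 and SQD3 passed only through their deprived values. Those 3 were at least 2-fold higher under deprivation and 0 of the 6 were lower by as much; of all genes, 5.59% were higher and 1.64% lower by that size. The same 3 genes were also past 4-fold, as were 1.03% of all genes. The genes were selected with earlier results of these libraries known, so these counts describe them and test nothing. Ranked by log2 fold, GDPD2 (4.12), SQD3 (3.38) and GDPD1 (2.89) stood in places 15, 32 and 57, while SQD1 stood in place 841, GDPD4 (0.62) in place 2256 and DGD1 in place 3987. The folds of GDPD1, GDPD2 and SQD3 on this scale depend on the added 1 RPKM. The median log2 fold of the 6 genes was 1.93, or 1.81 with those 3 genes set to the limit of 3 counts. It depends on the pseudocount as well, at 1.10 with 5 RPKM, 2.99 with 0.1 RPKM and 3.42 with none. The side of the 2-fold line on which SQD1 and GDPD4 fell depended on the scale. SQD1 was past it with both libraries scaled to a common sum (log2 fold 1.04), and GDPD4 without the added 1 RPKM (1.03).

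Values as low in the replete and as high in the deprived library as those of GDPD1, GDPD2 and SQD3 were uncommon in the table. Of 6411 loci with at least the deprived RPKM of GDPD1, 7 (0.109%) had a replete RPKM no higher than that of GDPD1. These 7 were the 3 genes themselves and 4 loci without a symbol. Both limits were set from the genes' own values, so the share is a description. Among the loci without a symbol, Cre09.g404900 had 0.0688 RPKM with phosphate and 345 RPKM without, far above the others.

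None of the other GDPD genes had such values. Of 7 loci annotated with this activity, 6 passed the filter. GDPD1 and GDPD2 were at least 2-fold higher and 0 were lower by as much, against 5.59% and 1.64% of all genes. The median log2 fold of the 6 was 0.71, also with GDPD1 and GDPD2 set to the limit of 3 counts. GDPD6 had 8.62 RPKM with phosphate and 15.8 RPKM without (log2 fold 0.81). GDPD5, at 4.34 and 3.77 RPKM (-0.16), was the only one of the 6 with a lower value under deprivation, and Cre02.g115750, a locus described as a member of this family, had 1.24 and 2.31 RPKM (0.57). GDPD3 stayed below the filter, with 0.219 and 0.268 RPKM. In sum the 7 loci had 15.7 RPKM with phosphate and 49.8 RPKM without. The share of GDPD1 and GDPD2 together was 1.45% of the former and 51.1% of the latter sum. Under the reading above, that 1.45% holds only the added counts and no reads. GDPD6 was the most abundant gene of the family in the replete library, and GDPD2 in the deprived library.

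Genes of the adjoining pathways were described through lists defined by patterns on symbols and descriptions. Sulfolipid synthesis held only SQD1 and SQD3, galactolipid synthesis only DGD1, and the patterns for triacylglycerol synthesis and lipid droplets matched 0 loci. Only 3231 of the 17147 loci carry a symbol, so further genes of these pathways may have been missed and the lists may be incomplete. Glycerol-3-phosphate, the product that GDPD enzymes release, is also made from dihydroxyacetone phosphate by glycerol-3-phosphate dehydrogenase. In the list on glycerol-3-phosphate the median log2 fold was -0.0043, above 0 with both libraries scaled to a common sum. The list includes HPT2b, described as a hexose-phosphate transporter. Without it, a choice made after descriptions had been read, the median was -0.082 over 4 loci. Of the 5 loci in the list, 1 was past 2-fold, upwards, against 5.59% of all genes. The higher one was Cre01.g053000, 1 of 3 loci with the symbol GPD1, annotated as a glycerol-3-phosphate dehydrogenase, at 23.7 RPKM with phosphate and 183 RPKM without (log2 fold 2.90). In the deprived library its level was close to the 181 RPKM of SQD1. The other dehydrogenase locus, Cre12.g511150, had 5.84 and 4.13 RPKM (-0.41), and Cre02.g139000, a glycerol-3-phosphatase locus that carries the same symbol, had 11.05 and 9.79 RPKM (-0.16).

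Sulfolipid needs sulfite, which the plastid makes from sulfate. Of 15 genes for sulfate uptake and reduction, 1 was past 2-fold, upwards, a share near the 5.59% of all genes, and their median log2 fold was 0.31 against 0.14 over all genes. The count was 2 without a pseudocount, with 0.1 RPKM and with a common sum. The higher one was SLT1, a sodium/sulfate co-transporter gene, at 1.98 RPKM with phosphate and 14.2 RPKM without (2.36). SULTR2, a sulfate transporter gene just under the threshold, had 22.9 and 46.5 RPKM (0.99). The genes of the enzyme steps around sulfite had smaller differences. ATP-sulfurylase ATS1 had 582 and 753 RPKM (0.37), the APS reductase MET16 had 248 and 188 RPKM (-0.40), and the ferredoxin-sulfite reductase SIR1 had 50.5 and 66.96 RPKM (0.40). These 3 enzyme genes and SULTR2 were named after their values were seen.

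Upstream of the GDPD step, phospholipases cut the phospholipids. The list of phospholipases and acyl hydrolases had 0 of 6 loci past 2-fold in either direction. Of all genes, 5.59% were higher and 1.64% lower by that size. The median log2 fold of the list was 0.08, which was below 0 under 3 of 4 scalings. Its largest log2 fold was that of the phospholipase A2 gene PLA2 (6.29 and 10.3 RPKM, 0.63). In the list of phospholipid and betaine lipid synthesis the median was 0.16, below 0 under 2 of 4 scalings. Of its 9 genes, 1 was past 2-fold, upwards, against 5.59% of all genes. The higher gene, SDC1, a serine decarboxylase that supplies ethanolamine for phosphatidylethanolamine, had 108 and 218 RPKM (1.01), and it was under 2-fold with a pseudocount of 5 RPKM and under 2 of 4 scalings. Some loci in these lists do other things, such as PGP1, PGP2 and PGP3, described as phosphoglycolate phosphatases, and FTT1, a 14-3-3 protein. With such loci left out, a choice made after their descriptions had been read, the medians were 0.08 over 3 and 0.33 over 5 loci. The only gene of betaine lipid synthesis in the list, BTA1, had 39.1 RPKM with phosphate and 32.5 RPKM without (-0.26).

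**Figure D3:**
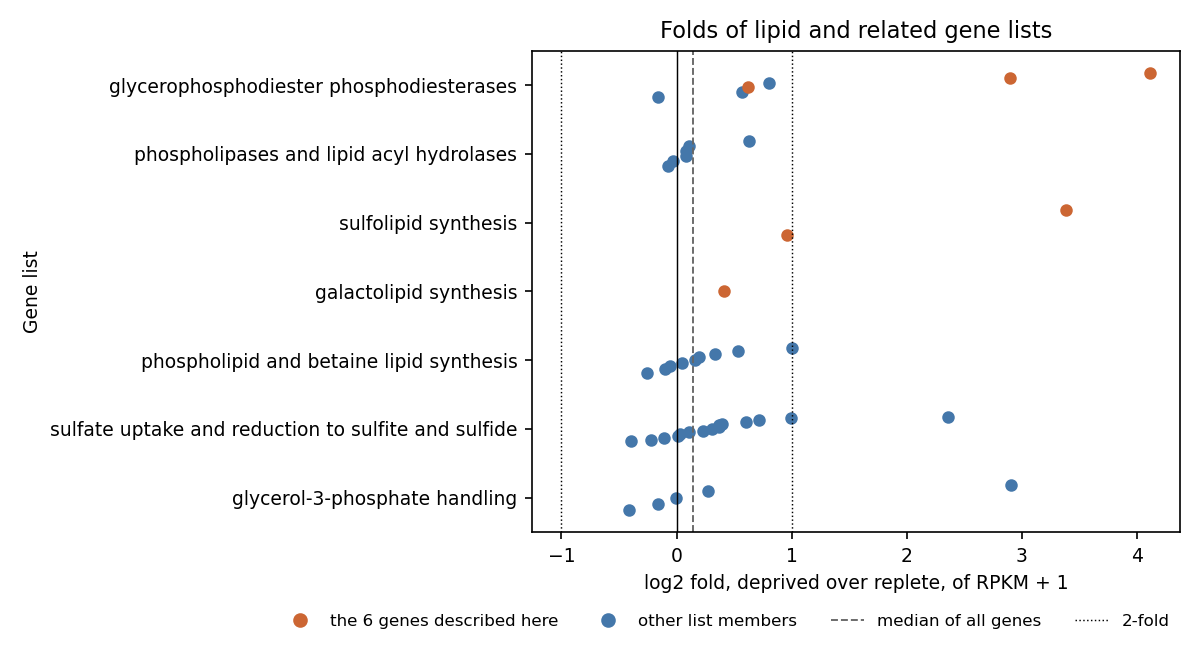
log2 fold of RPKM + 1 (deprived over replete, x axis) for each gene that passed the filter in 7 lists (y axis); points are single genes from 1 library per condition. Orange points are the 6 genes described here, the dashed line is the median of all genes (0.14) and dotted lines mark 2-fold. Beyond the 2-fold line lie GDPD1, GDPD2, SQD3, SLT1, a GPD1 locus and, just past it, SDC1.

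The loci next to each gene were looked up in the RefSeq table of assembly Chlamydomonas_reinhardtii_v5.5, in which 12620 of the 17147 loci and all 6 genes were found by locus tag. No coordinates are given because the labels do not state the build behind the deposited values. GDPD1 and GDPD2 are adjacent on chromosome 16, which also carries SQD1 and SQD3, while GDPD4 lies on chromosome 3 and DGD1 on chromosome 13. Among up to 2 loci on each side of the 6 genes, 12 other loci passed the filter. Their log2 folds ran from -0.91 to 1.46 with a median of 0.30, against 0.14 over all genes. Of the 12, 1 was past 2-fold, upwards, against 5.59% of all genes. The higher one was PUS6, a pseudouridine synthase gene next to SQD3, with 2.54 and 8.74 RPKM (1.46). On the other side of GDPD1, Cre16.g683800 was listed at 0.106 and 0.284 RPKM, and CGL67 beyond it had 37.3 and 26.03 RPKM (-0.50). The high deprived values of GDPD1 and GDPD2 thus did not extend to the loci measured on that side. The 2 loci on the side of GDPD2 had no match by locus tag among the 17147 loci.

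**Figure D4:**
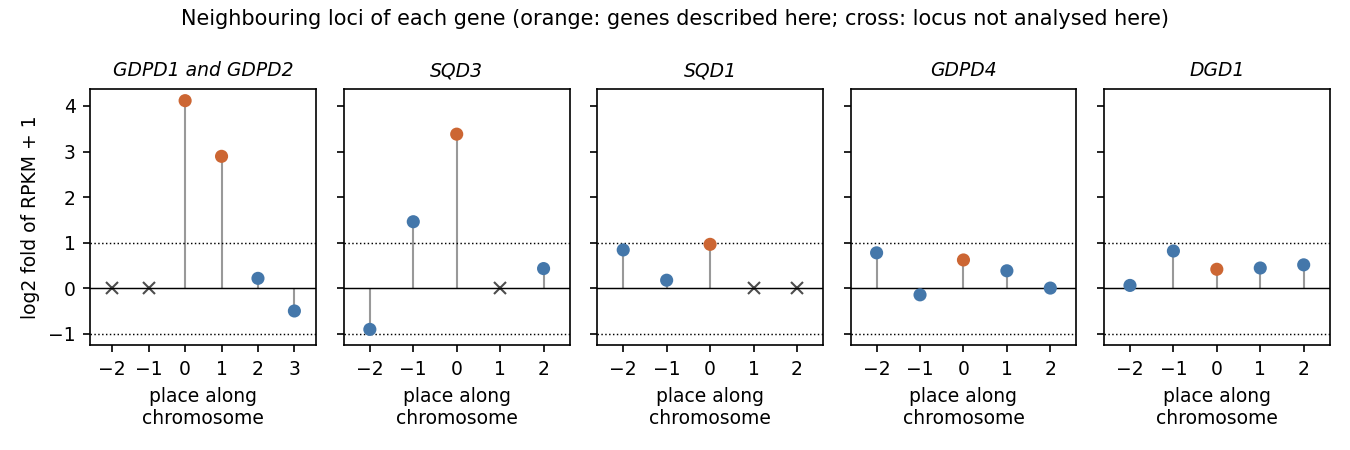
log2 fold of RPKM + 1 (y axis) for each gene (orange, at place 0, and for GDPD1 at place 1 of the first panel) and its neighbours (blue) by their place along the chromosome (x axis). A cross marks a locus of the reference that had no match by locus tag among the 17147 loci. GDPD2, SQD3 and GDPD1 lie at 4.12, 3.38 and 2.89, and of the neighbours shown only PUS6, at 1.46, passes the dotted 2-fold line.

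Among 3020 genes with a symbol that passed the filter, likeness was measured as the Euclidean distance between genes on log2(RPKM + 1) of the 2 libraries, the 3 nearest genes being taken for each. Among these, GDPD1 and SQD3 were each other's nearest gene (distance 0.44). Loci without a symbol were not searched. Of those, Cre16.g672250 (0.0701 and 10.2 RPKM) and Cre16.g671200 (0.0424 and 11.2 RPKM) had values closer to those of SQD3 than GDPD1 had. The nearest to GDPD2 was PSR1, the regulator of the phosphorus starvation response, with 0.659 and 16.4 RPKM (distance 0.61), ahead of SQD3 (0.74) and GLR1, an ionotropic glutamate receptor gene (0.84). After SQD3, GDPD1 was nearest to the cyclic nucleotide phosphodiesterase gene PDE12 (0.51) and to LAG1 (0.63), and SQD3 had the copper amine oxidase gene AMX2 (0.73) between GDPD1 and GDPD2 (0.74). The other 3 genes had closer neighbours among the genes with a symbol. SQD1 was nearest to the L-aspartate oxidase gene ASO1 (94.3 and 181 RPKM, distance 0.028), then to the proton ATPase gene PMA2 (0.20) and RDP3 (0.20). GDPD4 was nearest to RWP3, CYG22 and CGL47 (0.041, 0.047 and 0.058), and DGD1 to FAP196, VPS22 and FAP43 (0.023, 0.029 and 0.035). With 2 libraries such a distance reflects only a level and a fold.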

How the data were processed

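Total RNA of 2 cultures was sequenced with standard Illumina library preparation, per the labels' protocols, with 1 library per condition. The authors deposited RPKM values for 17147 loci, and Bowtie is named, with no version, per the submitters' processing notes. The counting method, genome build, annotation and filters are not stated in the labels. Depth was inferred from the values. A pair of ratios at 1.496 and 1.504 times the shared one, held by 61 and 71 loci (tolerance 0.0001), was read as 1 count added per run in 2 runs of every library. At a length of 1000 bases, 1 RPKM then stands for about 12.4 reads in the replete and 14.3 reads in the deprived library, added counts included. The RPKM values summed to 901012 and 855498.

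Folds are log2 of deprived over replete RPKM with a pseudocount of 1 RPKM, which understates folds of low genes. Genes averaging at least 1 RPKM were counted by size (2-fold, 4-fold), with no test. Limits used 3 counts per library; intervals are 95% exact Poisson (levels) and exact conditional binomial (ratios). Lists were matched by patterns on symbol or description. Named are the 6 genes, every gene of the GDPD, sulfolipid and galactolipid lists, in each other list those at least 2-fold different or else the largest fold, and the nearest genes; others were added for context. Genes and lists were chosen with earlier results of these data known. A promoter motif search and a protein comparison had been planned and were not run, as no sequences were used here. Alternatives were other pseudocounts, scalings, filters and list definitions. Folds and counts were checked on simulated data, which used the inferred depth and added counts. Changes were placed only in genes of higher mean RPKM than GDPD1, GDPD2, GDPD4 and SQD3. That check therefore does not cover the folds or limits of these genes. The planted changes were past 4-fold, far larger than the differences of SQD1 and DGD1, so it does not cover their folds either. Calculations used Python 3.11.15, numpy 2.4.6, pandas 2.3.3 and scipy 1.17.1.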

Additional observations from a re-analysis of the deposited data

How the results depend on the processing

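No paired analysis was possible because each condition has 1 library. All 6 genes kept a higher value under deprivation with each alternative tried, and 3 genes were past 2-fold on the scale of RPKM + 1, 2 with a mean of at least 5 RPKM and 4 without a pseudocount or with a common sum. Past 4-fold were 3, but 2 with a mean of at least 5 RPKM. With a pseudocount of 5 RPKM it was 1 (GDPD2), and there GDPD1 had 1.27 and SQD3 1.60. The log2 fold of SQD1 was 0.75 with equal medians and 0.78 with trimmed mean scaling, and that of GDPD4 ranged from 0.24 with 5 RPKM to 1.03 without a pseudocount. For DGD1 it was 0.21 with equal medians, 0.24 with trimmed mean scaling, 0.27 with quantile normalization and 0.49 with a common sum. The lower limits for GDPD2 and SQD3 were 108-fold and 63.2-fold with equal medians, and that of GDPD2 was 110.04-fold with trimmed mean scaling. Had 1 count been added once per library in place of once per run, an alternative added after the data were seen, the limits would be 18.5-fold for GDPD1, 62.5-fold for GDPD2 and 36.5-fold for SQD3.

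The median over all genes was -0.025 with equal medians, -0.0027 with trimmed mean scaling and -0.0302 with quantile normalization, against 0.14 unscaled, each computed on RPKM + 1. The median of the 6 genes was 2.99, 1.10 and 3.42 with pseudocounts of 0.1 and 5 RPKM and with none. The median of the GDPD list was 2.46 with a mean of at least 5 RPKM, where fewer genes remain and 1 was past 2-fold. The phospholipase median was -0.12, -0.095 and -0.038 with equal medians, trimmed mean and quantile scaling and 0.16 with a common sum, and that of phospholipid and betaine lipid synthesis was -0.043 and -0.016 with the first 2 of these. In the latter list 0 genes were past 2-fold with those 2 scalings and with 5 RPKM. In the sulfate list 2 were, with a pseudocount of 0.1 RPKM, without one and with a common sum. The glycerol-3-phosphate median was 0.064 with a common sum and 0.13 with a mean of at least 5 RPKM. The causes of these shifts were not tested. Depth leaves only lower limits for GDPD1, GDPD2 and SQD3, at 0 replete reads, and about 11 and 29 reads for GDPD4 at 1000 bases.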

Other observations

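Descriptions deposited with the values say of 7 loci, SQD3 among them, that no expressed sequence tags were known. Of these, 5 had a mean of at least 1 RPKM, and SQD3 was the only one of the 5 past 4-fold, as were 1.03% of all genes. The median of the 7 was 1.24 RPKM with phosphate and 4.77 RPKM without. These medians are values of different loci, Cre10.g438050 and BOR1, so they do not give a typical difference. Apart from SQD3 (log2 fold 3.38), the log2 folds of the 7 ran from -0.14 for Cre10.g438050 to 0.52 for Cre15.g644100. MST2, with 14.3 and 18.8 RPKM, and Cre12.g502700, with 8.68 and 12.2 RPKM, were the other 2 loci of this description at or above the deprived level of SQD3. The 7 loci were picked after the values of SQD3 had been seen.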
